A study of Mus musculus with 11 samples.

Results

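The transcription factor genes Tfap2a, Sox21 and Meis2 were described across 11 libraries of mouse intestinal organoids. They are 3 of 37310 genes in the count tables, found there by Ensembl identifier (ENSMUSG00000021359.8, ENSMUSG00000061517.6 and ENSMUSG00000027210.11), and all 3 passed the filter on low counts, as did 14172 genes in all. They had been picked because their read counts were higher at late than at early passage, so their levels at the 2 stages are given below as a description, with no test. Late libraries came from passages 11, 12 and 13 of mouse_285 and of mouse_283 (n = 6). Early libraries came from passages 2 and 4 of mouse_285 and passages 2, 3 and 4 of mouse_283 (n = 5). Every library, late or early, was of organoids grown from small-intestinal crypt cells of animals with the Lgr5-EGFP-IRES-creERT2 genotype, a reporter allele at a stem cell gene that both stages and both mice share. The design text names ages of 4 and 24 months, but no label ties an age to an animal, so age was not compared. Libraries of a mouse share an animal, the labels do not say whether they also share a culture, and p-values measure the spread between such libraries of 2 mice.

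Tfap2a encodes AP-2 alpha, a DNA-binding factor of the surface ectoderm, the neural crest and the epidermis. Sox21 encodes an HMG-box factor of the same subgroup as Sox14, known for its part in neural progenitors and in the stratified epithelia of the skin and foregut. Meis2 encodes a TALE-class homeodomain factor that binds DNA together with PBX and HOX proteins and is known for its part in the neural crest, the limb and the retina. Intestinal epithelium is instead built by factors such as CDX2, HNF4A and GATA4.

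Because the members were higher together at late passage, their promoters were read for shared motifs. All 3 were matched in the RefSeq table of build GRCm38.p6, with 2 start sites for Tfap2a, and each window runs from 250 bases before to 50 bases after a start site on the minus strand. The windows are chr13:40734871-40735170 and chr13:40733746-40734045 for Tfap2a, chr14:118236981-118237280 for Sox21 and chr2:116064570-116064869 for Meis2. Capitals mark a match to the AP-2 motif GCCNNNGGC.
Tfap2a window 1: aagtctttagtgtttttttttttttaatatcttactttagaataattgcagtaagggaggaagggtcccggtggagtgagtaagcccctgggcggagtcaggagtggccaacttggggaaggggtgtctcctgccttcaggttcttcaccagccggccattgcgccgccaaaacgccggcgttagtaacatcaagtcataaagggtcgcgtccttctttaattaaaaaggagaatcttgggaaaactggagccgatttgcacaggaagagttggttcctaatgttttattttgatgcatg
Tfap2a window 2: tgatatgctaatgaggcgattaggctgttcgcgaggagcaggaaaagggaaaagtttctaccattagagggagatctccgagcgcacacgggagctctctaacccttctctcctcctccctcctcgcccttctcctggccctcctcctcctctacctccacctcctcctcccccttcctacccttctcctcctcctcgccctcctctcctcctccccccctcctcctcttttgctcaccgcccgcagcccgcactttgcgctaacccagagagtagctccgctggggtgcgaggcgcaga
Sox21: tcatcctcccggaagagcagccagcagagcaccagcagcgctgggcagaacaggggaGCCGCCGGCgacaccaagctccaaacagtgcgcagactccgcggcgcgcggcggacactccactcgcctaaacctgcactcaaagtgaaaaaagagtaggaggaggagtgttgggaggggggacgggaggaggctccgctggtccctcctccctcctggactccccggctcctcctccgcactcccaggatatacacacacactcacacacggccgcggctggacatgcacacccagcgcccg
Meis2: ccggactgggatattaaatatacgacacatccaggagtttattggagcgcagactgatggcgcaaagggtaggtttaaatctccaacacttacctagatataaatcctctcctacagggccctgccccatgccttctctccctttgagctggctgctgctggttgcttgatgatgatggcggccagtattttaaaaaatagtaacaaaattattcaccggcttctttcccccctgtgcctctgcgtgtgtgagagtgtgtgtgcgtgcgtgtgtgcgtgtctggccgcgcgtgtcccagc
The AP-2 motif reads the same on both strands and was found 1 time, in the Sox21 window, while 16.6% of 32851 promoters of this length hold it. The core SOX motif ACAAT and the MEIS motif TGACAG, each searched on both strands, were found in none of the 4 windows, against 31.0% and 19.2% of all promoters. The motifs searched do not overlap in these windows, and a match is a description of the letters only. CpG dinucleotides numbered 11 and 15 in the Tfap2a windows, 22 in the Sox21 window and 13 in the Meis2 window, against a median of 7 over all promoters, with quartiles of 3 and 20. The Sox21 window had the highest GC content of the 4, at 65.7%, against 46.3% and 61.0% for Tfap2a and 51.0% for Meis2.

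Total gene reads ran from 15114132 to 28949911 per library, so a limit of 3 counts lay between 0.104 and 0.198 CPM (read counts scaled to the library total) and covers counting error only. With no sequencing or extraction batch in the labels, a batch that follows the stage and the stage itself cannot be told apart. Expression followed GC content more steeply at passages 3 and 4 of mouse_283 than elsewhere, with slopes of 0.974 and 0.778 on the log2 scale per 10 points of GC, against -0.407 to 0.199 in the other 9 libraries. Sox21 is the most GC-rich member (58.3% over its longest annotated transcript), followed by Tfap2a (48.7%) and Meis2 (43.8%). The stage change of the members, and some other values that moved, are therefore also given without these libraries. Strand was not resolved, since 49.99% to 50.16% of the reads in the strand columns of a library were in the first of them. Tfap2a is overlapped on the opposite strand by Gm47061, Gm26688 and Gm47067. None of them is in the count tables, so their reads cannot be told apart from those of Tfap2a where they overlap. Sox21 is overlapped by the long non-coding RNA gene Gm4675, which is counted on its own. Reads in the stretch that Sox21 and Gm4675 share cannot be told apart by strand.

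Tfap2a was at a low level in every early library and between 10.4 and 29.4 normalised CPM in every late library. In late libraries it reached 10.4, 19.0 and 18.9 normalised CPM at passages 11, 12 and 13 of mouse_285 and 29.4, 29.2 and 26.9 at the same passages of mouse_283. In early libraries it was at 1.64 and 1.74 normalised CPM at passages 2 and 4 of mouse_285 and at 3.29, 1.78 and 4.66 at passages 2, 3 and 4 of mouse_283. The stages did not overlap, and the lowest late library was 2.23 times the highest early library. Raw reads for Tfap2a ran from 248 to 895 in late libraries and from 29 to 129 in early libraries, all above the limit of 3 counts. The mean was 22.3 ± 7.53 normalised CPM at late passage (SD, n = 6) and 2.62 ± 1.33 at early passage (SD, n = 5), a ratio of 8.5.

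Sox21 had the highest late level per kilobase of the 3 genes and the widest spread between mice. Its late values were 21.0, 18.7 and 21.4 normalised CPM at passages 11, 12 and 13 of mouse_285 and 49.8, 49.5 and 53.6 in mouse_283. Its early values were 4.42 and 2.04 normalised CPM at passages 2 and 4 of mouse_285 and 9.94, 5.66 and 12.6 at passages 2, 3 and 4 of mouse_283. The stages did not overlap, with the lowest late library 1.49 times the highest early library, and within each mouse the gap was wider than this. The mean was 35.6 ± 16.8 normalised CPM at late passage (SD, n = 6) and 6.93 ± 4.27 at early passage (SD, n = 5), a ratio of 5.14.

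Meis2 was nearly level over the 6 late libraries, at 23.5, 24.5 and 27.5 normalised CPM at passages 11, 12 and 13 of mouse_285 and at 28.1, 31.4 and 28.7 in mouse_283. In early libraries it was at 5.32 and 6.38 normalised CPM at passages 2 and 4 of mouse_285 and at 12.4, 3.99 and 5.16 at passages 2, 3 and 4 of mouse_283. The stages did not overlap here either, and the lowest late library was 1.89 times the highest early library, passage 2 of mouse_283, which stood apart from the other early libraries. The mean was 27.3 ± 2.87 normalised CPM at late passage (SD, n = 6) and 6.66 ± 3.34 at early passage (SD, n = 5), a ratio of 4.1. Every late library lay above every early library for 2.21% of all genes tested, and since the members were chosen on this contrast nothing is read from their share. In bulk RNA, fewer cells that express a gene and less of its RNA per cell cannot be told apart.

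**Figure D1:**
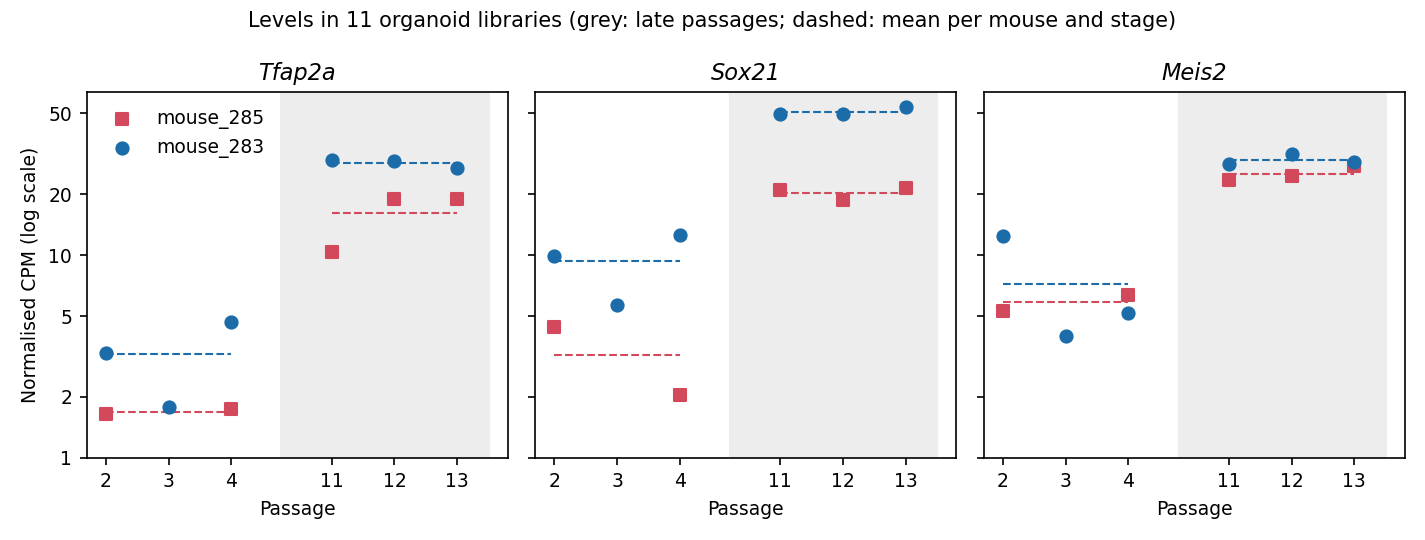
Normalised CPM on a log axis against passage for Tfap2a, Sox21 and Meis2, with squares for mouse_285, circles for mouse_283, dashed lines for the mean of each mouse and stage, and the late passages shaded; the passage axis is not to scale between 4 and 11. All late points lie above all early points of the same gene, and the mice are farther apart for Sox21 than for Meis2.

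Per kilobase of the longest annotated transcript, Sox21 stood at 9.38 ± 4.43 CPM per kilobase in late libraries, Tfap2a at 6.39 ± 2.16 and Meis2 at 4.96 ± 0.523 (SD, n = 6). Per kilobase at early passage, Sox21 stood at 1.82 ± 1.12, Meis2 at 1.21 ± 0.608 and Tfap2a at 0.752 ± 0.38 (SD, n = 5). Neighbours in either order differed by less than the sum of their SDs.

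As a description of the contrast that chose them, the fitted log2 change from edgeR, late minus early with mouse in the model, was 3.17 for Tfap2a (SE 0.27), 2.53 for Sox21 (SE 0.25) and 2.06 for Meis2 (SE 0.27). The median log2 change over all tested genes was -0.02. Among the 10052 genes with a mean of at least 5 CPM, these changes ranked 1, 2 and 7 from the highest, and among all 14172 they ranked 11, 23 and 52. Of all genes tested, 0.706% passed an adjusted p of 0.05 with a higher late level and 2.34% with a lower one, which is background for the lists below and no test of the members. The change within each mouse was of similar size, in a joint model of all 11 libraries in which the mice share the fitted spread. For Tfap2a the log2 change was 3.24 in mouse_285 (SE 0.45) and 3.12 in mouse_283 (SE 0.37). For Sox21 it was 2.66 in mouse_285 (SE 0.41) and 2.43 in mouse_283 (SE 0.34), and for Meis2 it was 2.1 in mouse_285 (SE 0.44) and 2.04 in mouse_283 (SE 0.37). Without passages 3 and 4 of mouse_283 the log2 changes were 3.19 for Tfap2a, 2.53 for Sox21 and 1.74 for Meis2. With a correction for GC content and transcript length they were 3.15, 2.81 and 1.73 in the same order.

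Some reads were counted for a member in a strand column but not in the unstranded column, and which overlapping genes kept them out was not tested. They made up 20.4% of Sox21 reads in late libraries and 22.1% in early libraries, between 9.94% and 34.4% in single libraries. For Tfap2a the share was 5.42% in late and 7.31% in early libraries, and for Meis2 it was 1 of 4155 reads. With both strand columns added, an alternative chosen after the data were seen, the log2 change of Sox21 was 2.49. Gm4675, opposite Sox21, had 7 to 16 reads in late libraries and 0 to 12 in early libraries, and did not pass the threshold (log2 change 1.8, SE 0.58, adjusted p = 0.111).

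Whether the mice differed was not used to choose the genes and could be tested. Sox21 was lower in mouse_285 than in mouse_283 in every library at both stages, with a log2 difference of -1.42 (SE 0.24), and missed the threshold over all genes (edgeR adjusted p = 0.0607). Tfap2a was also lower in mouse_285 in every library at both stages, with a log2 difference of -0.88 (SE 0.25, edgeR adjusted p = 0.402). Such an order held for 129 of the 14172 genes tested (0.91%). For Tfap2a the early order was narrow, with 1.74 normalised CPM (34 reads) at passage 4 of mouse_285 and 1.78 (33 reads) at passage 3 of mouse_283. Meis2 overlapped between the mice at early passage, and its log2 difference was -0.25 (SE 0.26, edgeR adjusted p = 0.891). Of all genes, 11 passed in this comparison (0.0776%). The Sox21 difference passed when passage 2 of mouse_283 was left out (-1.39, adjusted p = 0.0251), when passage 3 of mouse_283 was left out (-1.5, adjusted p = 0.0235) and when passages 3 and 4 of mouse_283 were both left out (-1.39, adjusted p = 0.0024). Without both of these libraries the difference was -0.85 for Tfap2a (adjusted p = 0.0601) and -0.47 for Meis2 (adjusted p = 0.32).

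Whether the change with stage differed between the mice was tested with an interaction term. The late-minus-early log2 change in mouse_285 minus that in mouse_283 was 0.12 for Tfap2a (SE 0.53), 0.22 for Sox21 (SE 0.49) and 0.07 for Meis2 (SE 0.54), with edgeR adjusted p-values of 0.99, 0.99 and 0.994. These errors leave room for a difference of either sign. Without passages 3 and 4 of mouse_283 the interaction was 0.13 for Tfap2a, 0.31 for Sox21 and 0.86 for Meis2, with edgeR adjusted p-values of 0.89, 0.681 and 0.18. Of all genes, 0 passed this test with edgeR (0.0%), while 302 had an unadjusted p under 0.05 and 16 passed with DESeq2. Within a stage, with stage and mouse in the model, the log2 slope per passage was 0.17 for Tfap2a (SE 0.14), -0.04 for Sox21 (SE 0.14) and -0.11 for Meis2 (SE 0.15), with edgeR adjusted p-values of 0.631, 0.89 and 0.725. Without those 2 libraries the slopes were 0.12, -0.13 and 0.009 in the same order, with edgeR adjusted p-values of 0.698, 0.65 and 0.981. Of all genes, 0 passed for the slope with edgeR (0.0%) and 0 with DESeq2, while 911 had an unadjusted p under 0.05. No passage between 4 and 11 was in the data, so the course between the stages was not observed.

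Across the 11 libraries the levels of the members varied together, which the choice of genes fixes in large part. Pearson's r of log2 CPM was 0.94 between Tfap2a and Sox21, 0.93 between Tfap2a and Meis2 and 0.85 between Sox21 and Meis2 (n = 11 libraries that share animals and stages). After the mean of each mouse and stage was taken off, r was 0.52, 0.35 and 0.21 in the same order. In passage 3 of mouse_283 all 3 genes were below their mouse and stage mean, by -0.73 for Tfap2a, -0.65 for Sox21 and -0.66 for Meis2 on the log2 scale, and this was a library with a steep GC slope. Without that library the correlations of deviations were -0.0083, -0.29 and -0.46, so their sign rested on it. The largest single deviation of Meis2 was 0.96, at passage 2 of mouse_283, where Tfap2a and Sox21 deviated by 0.12 and 0.15. Sox21 deviated by 0.54 at passage 2 of mouse_285 and by -0.54 at passage 4 of the same mouse, where Tfap2a deviated by -0.04 and 0.04. The biological coefficients of variation that edgeR fitted were 0.297 for Tfap2a, 0.279 for Sox21 and 0.305 for Meis2, below the common value of 0.333.

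**Figure D2:**
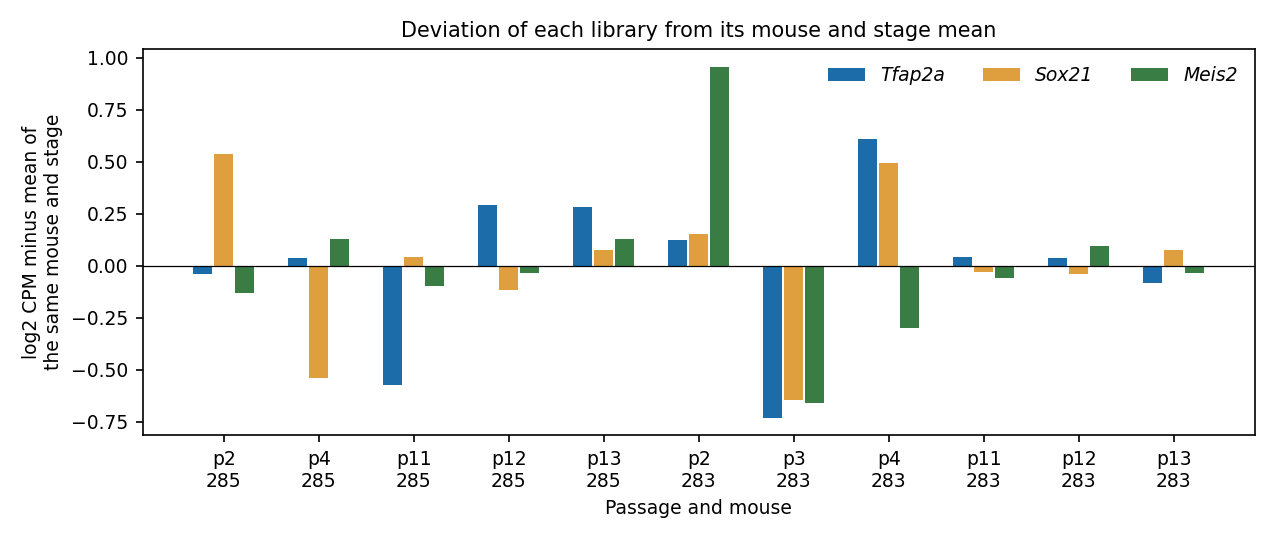
Deviation of log2 CPM from the mean of the same mouse and stage for Tfap2a, Sox21 and Meis2, as bars for each of the 11 libraries, with passage and mouse on the horizontal axis. All 3 bars point down together in passage 3 of mouse_283, and Meis2 alone is far up in passage 2 of mouse_283.

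Tfap2a was alone among the AP-2 genes in passing the filter on low counts. Its 4 paralogs Tfap2b, Tfap2c, Tfap2d and Tfap2e, which bind the same motif in other tissues, had at most 1 read in any library, under the limit of 3 counts. The other 10 genes of a list of AP-2 relatives and cofactors were tested and none passed (0 of 10 higher and 0 of 10 lower, against 0.706% and 2.34% of all genes), with a median log2 change of -0.01. Among them Kctd15, an inhibitor of AP-2 alpha, was at 18.7 ± 4.81 normalised CPM in late libraries and 15.5 ± 5.67 in early libraries. The coactivator gene Cited2 was at 81.4 ± 7.41 normalised CPM in late libraries and 77.0 ± 11.1 in early libraries. Both were chosen for their roles, after their values were seen.

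Of 20 genes reported elsewhere as AP-2 alpha targets, 16 were tested. Of these, 2 were higher late, 0 were lower and 14 did not pass, against 0.706% higher and 2.34% lower of all genes tested. Their median log2 change was 0.18, against -0.02 over all genes. Mcam, a cell adhesion molecule gene, was at 3.66 to 8.97 normalised CPM in late libraries and at 2.25 to 4.48 in early libraries. It rose by 1.23 on the log2 scale (SE 0.25, edgeR adjusted p = 0.0221). Bcl2, which encodes an inhibitor of cell death, was at 7.87 to 12.1 normalised CPM in late libraries and at 2.43 to 6.89 in early libraries, without overlap, and rose by 1.0 (SE 0.25, edgeR adjusted p = 0.0475). The Mcam call was lost without passage 4, 11 or 12 of mouse_285 or without passage 12 or 13 of mouse_283 (adjusted p between 0.0579 and 0.0779). The Bcl2 call was lost in the 9 fits that left out a library other than passage 2 or 3 of mouse_283 (adjusted p between 0.0717 and 0.13). The epidermal keratin genes Krt5 and Krt14, also on the list, reached at most 12 and 6 reads.

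No other SOX gene passed the threshold with a higher late level, and the SOX gene that did pass was lower late. Of 19 other SOX genes, 18 were in the tables and 6 were tested, of which 0 were higher, 1 was lower and 5 did not pass. Over all genes tested, 0.706% were called higher late and 2.34% lower. The median log2 change of the tested SOX genes was -0.67, against -0.02 over all genes. Sox13, which encodes a SOX factor of the SoxD group, was at 7.57 to 11.5 normalised CPM in late libraries of mouse_285 and 4.4 to 10.4 in those of mouse_283. In early libraries it was at 21.5 to 29.3 in mouse_285 and 24.1 to 37.0 in mouse_283. Every late library was below every early library, as for 3.51% of all genes tested, and Sox13 fell by 1.76 on the log2 scale (SE 0.26, edgeR adjusted p = 0.00544), a call kept without each of the 11 libraries. Sox12, a SoxC gene, was at 8.22 ± 3.63 normalised CPM in late and 21.1 ± 8.41 in early libraries (adjusted p = 0.0568), and was picked after its value was seen.

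The intestinal stem and Paneth cell factor gene Sox9 was at 58.4 ± 10.3 normalised CPM in late libraries and 53.3 ± 23.2 in early libraries (log2 change 0.13, SE 0.26, edgeR adjusted p = 0.769). Sox4, a factor of intestinal secretory progenitors, was at 85.3 ± 19.9 normalised CPM in late and 58.5 ± 25.4 in early libraries (log2 change 0.52, SE 0.25, edgeR adjusted p = 0.22). Sox14, the nearest relative of Sox21, had at most 1 read in a library, and Sox2, which is found with Sox21 in neural and foregut progenitors, had 0 reads in all 11 libraries, which allows up to 3 counts in each.

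The PBX, PREP and MEIS relatives of Meis2 did not pass the threshold. Of 17 other TALE homeobox genes, 10 were tested and 0 passed in either direction, with a median log2 change of 0.01. Over all genes tested 3.05% passed, so a count of 0 in so short a list says little about it. The paralog Meis1 had at most 3 reads in a library, and Meis3 was at 2.64 ± 0.61 normalised CPM in late libraries and 2.49 ± 0.842 in early libraries (log2 change 0.1, SE 0.29, edgeR adjusted p = 0.839). Pbx3, which encodes a DNA-binding partner of MEIS proteins, was at 4.78 to 11.2 normalised CPM in late libraries and 1.56 to 5.12 in early libraries (log2 change 1.32, SE 0.34, edgeR adjusted p = 0.0608) and was picked after its value was seen. Among the HOX genes of groups 9 to 13, whose products can bind DNA with MEIS proteins, 0 passed, beside the same 3.05%. Of 16 on the list, 2 were tested. These were Hoxa9, at 0.456 ± 0.414 normalised CPM in late and 1.12 ± 0.469 in early libraries, and Hoxa10, at 0.261 ± 0.205 in late and 0.539 ± 0.506 in early libraries. Another 9 of the HOX genes had 0 reads.

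**Figure D3:**
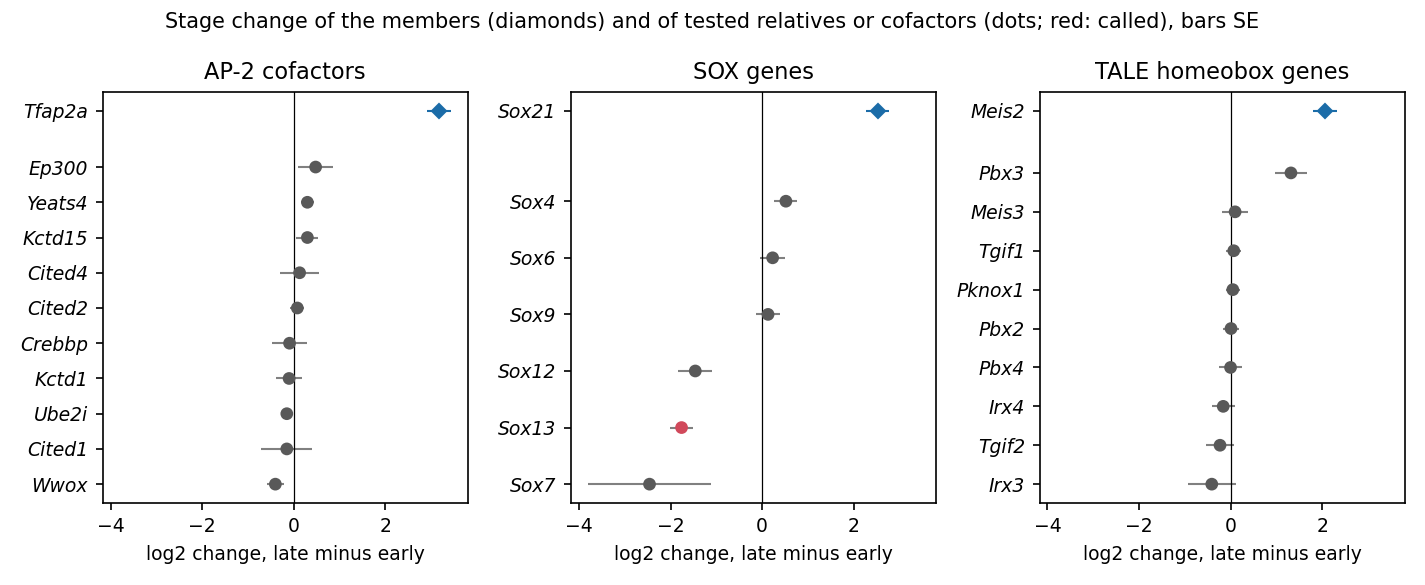
Log2 change, late minus early, with its SE for the members (blue diamonds) and for tested genes of the AP-2 cofactor, SOX and TALE homeobox lists (dots, red where the edgeR adjusted p was under 0.05, grey otherwise). The members, which were chosen on this contrast, lie to the right of the genes plotted from their lists, and Sox13 is the called gene, to the left of 0.

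Of 30 intestinal transcription factor genes, 29 were tested, with 2 higher, 1 lower and 26 that did not pass, against 3.05% of all tested genes past the threshold in either direction. Their median log2 change was 0.1. Cdx2, the homeobox gene of intestinal identity, was at 274.0 ± 25.9 normalised CPM in late and 292.0 ± 86.5 in early libraries (log2 change -0.1, SE 0.2, edgeR adjusted p = 0.762). Pdx1, a homeobox gene of the pancreas and duodenum, was at 7.36 to 11.0 normalised CPM in late libraries of mouse_285 and 48.2 to 63.2 in those of mouse_283. In early libraries it was at 3.91 to 6.43 in mouse_285 and 14.6 to 26.9 in mouse_283. It rose by 1.19 on the log2 scale (SE 0.23, edgeR adjusted p = 0.015), higher late within each mouse, though not in a model without mouse (adjusted p = 0.246). Like Sox21 and Tfap2a, Pdx1 was lower in every library of mouse_285 than in those of mouse_283 at both stages, with a log2 difference of -2.31 (SE 0.24, edgeR adjusted p = 0.00198), a comparison looked at after its values were seen.

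Neurod1, an enteroendocrine factor gene, was at 3.93 to 6.92 normalised CPM in late libraries and 0.647 to 2.71 in early libraries, and rose by 1.42 (SE 0.31, edgeR adjusted p = 0.0302). Creb3l3, which encodes a membrane-bound factor of enterocytes and hepatocytes, was at 21.3 to 54.1 normalised CPM in late libraries and 42.6 to 162.0 in early libraries, and fell by 1.29 (SE 0.32, edgeR adjusted p = 0.0469). The Neurod1 call was lost in the 8 fits that left out a library other than passage 2 or 3 of mouse_283 or passage 13 of mouse_285 (adjusted p between 0.051 and 0.0868). The Creb3l3 call was lost in the 9 fits that left out a library other than passage 2 or 4 of mouse_283 (adjusted p between 0.0703 and 0.142). It was also lost with library totals alone and with the GC and length correction.

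**Figure D4:**
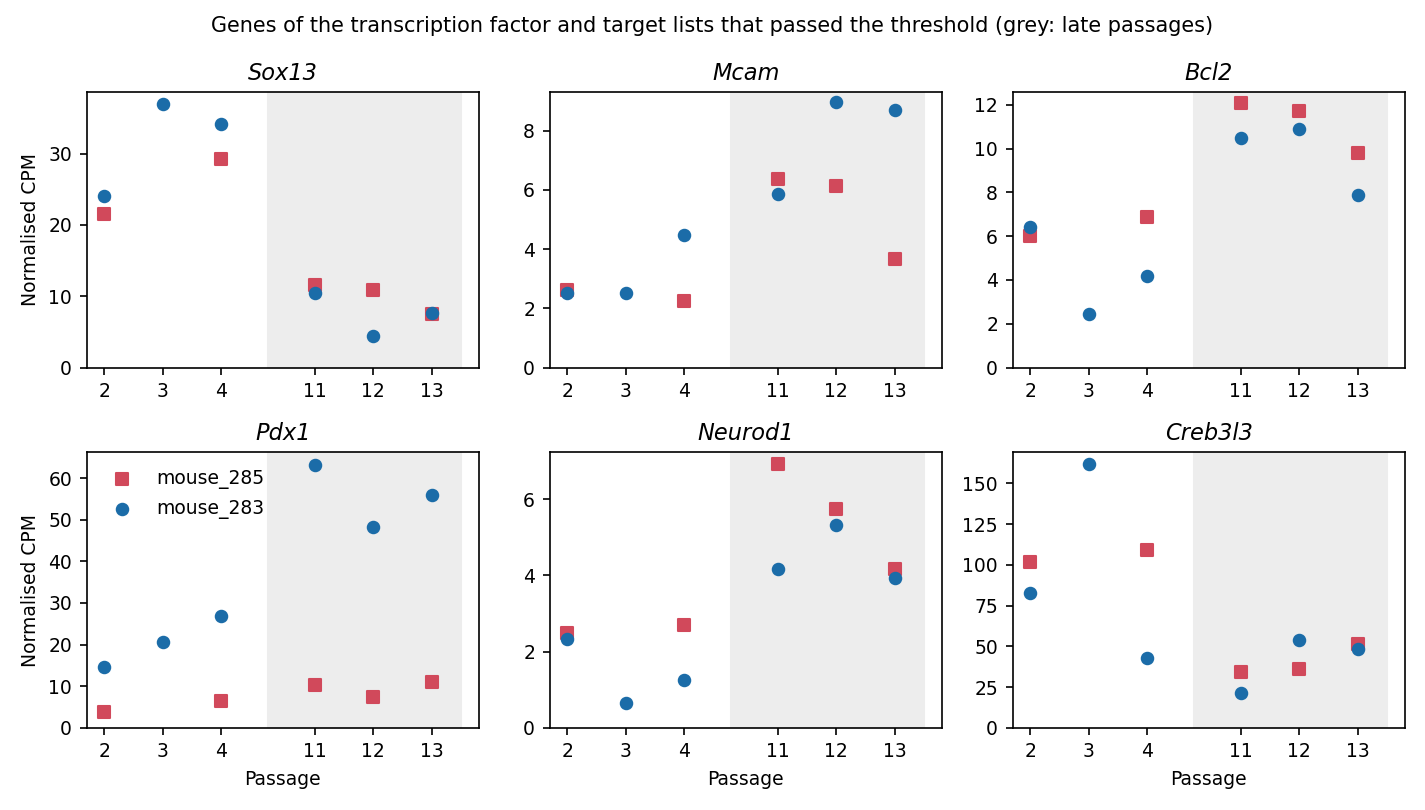
Normalised CPM against passage for the genes of the SOX, AP-2 target and intestinal factor lists that passed the threshold, with squares for mouse_285, circles for mouse_283 and late passages shaded. Sox13 is lower in all late libraries, and for Pdx1 the mouse_283 points lie above the mouse_285 points at both stages.

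Markers of other cell types were read because the members are known mainly from outside the intestine. Over all genes tested, 0.706% passed the threshold with a higher late level and 2.34% with a lower one. The intestinal epithelium list was at 10100 to 12700 summed CPM in late libraries and 10800 to 20600 in early libraries, led over all libraries by Krt8, Krt19, Epcam and Krt18, with 0 of 16 genes past the threshold. Of 20 neural crest and neural markers, 7 were tested and 0 passed. Their sum was 15.7 to 30.1 CPM in late and 21.9 to 45.0 CPM in early libraries, and the neural crest gene Sox10 had 0 reads. Of 20 mesenchyme, endothelial and leukocyte markers, 4 were tested, with 0 higher and 1 lower, and sums of 11.0 to 19.1 CPM in late and 12.9 to 48.2 CPM in early libraries. The lower gene was Fn1, which encodes fibronectin (log2 change -6.73, SE 1.33, edgeR adjusted p = 0.0182), a call lost without passage 11, 12 or 13 of mouse_283 (adjusted p between 0.0794 and 0.0874). Fn1 was at 0.0 to 0.0979 normalised CPM in late libraries, near or under the limit of 3 counts. In early libraries it was uneven, at 0.0511 to 27.7 with a median of 0.593, and the stages overlapped. The collagen gene Col1a1 reached at most 0.854 CPM and the leukocyte gene Ptprc at most 1 read.

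Of 24 markers of stratified and foregut epithelium, where Tfap2a and Sox21 are known to be expressed, 11 were tested. Of these, 2 were higher and 0 lower, against 0.706% and 2.34% of all genes tested. The median log2 change of the tested markers was 0.6, against -0.02 over all genes. The whole list summed to 297.0 to 519.0 CPM in late and 330.0 to 969.0 CPM in early libraries, and was made up mainly of Krt7 and Sfn. The basal cell genes Trp63 and Krt5 reached at most 2 and 12 reads. The genes that rose were Grhl3, a factor gene of surface epithelia, at 5.09 ± 2.53 normalised CPM in late and 1.63 ± 0.7 in early libraries (log2 change 1.64, SE 0.33, edgeR adjusted p = 0.0206), and Krt4, at 0.925 ± 0.711 in late and 0.128 ± 0.0624 in early libraries (log2 change 2.79, SE 0.62, edgeR adjusted p = 0.0317). They were named, like Fn1, after their values were seen. Krt4 was near the limit of 3 counts in early libraries, at 0.061 to 0.227 normalised CPM, and at 0.186 to 2.15 in late libraries, so the stages overlapped. The stages overlapped for Grhl3 as well, at 1.55 to 8.06 in late and 1.02 to 2.74 in early libraries. The Grhl3 call was lost without passage 4 or 11 of mouse_285 or passage 12 or 13 of mouse_283 (adjusted p between 0.0556 and 0.0683), and the Krt4 call without passage 4 or 11 of mouse_285 or passage 3, 4, 12 or 13 of mouse_283 (adjusted p between 0.0624 and 0.09). The Krt4 call was also lost with passages 3 and 4 of mouse_283 both left out (edgeR adjusted p = 0.0961). The part of these markers in the levels of the members was not tested.

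The genes next to the members on the chromosome were read to see whether the difference extended beyond them. Of the 12 nearest tested genes, 2 on each side of each member in RefSeq order, 1 passed the threshold, against 3.05% of all genes. The log2 change was positive for 11 of the 12. Since the members were chosen on this contrast, nothing is read from their own changes being larger. Next to Tfap2a, Slc35b3 and Gcnt2 had log2 changes of 0.05 (SE 0.19) and 0.08 (SE 0.28), and Eef1e1 and Pak1ip1 changes of 0.25 (SE 0.14) and 0.22 (SE 0.13). Next to Meis2, BC052040 and Spred1 had log2 changes of 0.41 (SE 0.19) and 0.81 (SE 0.27), and Dph6 and Fam98b changes of 0.54 (SE 0.3) and 0.55 (SE 0.21), with edgeR adjusted p-values between 0.115 and 0.277. Without passage 2 of mouse_283 these 4 genes beside Meis2 passed, with adjusted p between 0.0136 and 0.0277, in a fit that called 2599 of all genes higher late. Without passages 3 and 4 of mouse_283 their log2 changes were lower, at 0.15 for Dph6, 0.25 for BC052040, 0.45 for Spred1 and 0.28 for Fam98b, and none of them passed. With the GC and length correction they were 0.32, 0.31, 0.38 and 0.25 in the same order, again short of the threshold. Spred1 also passed with DESeq2 (adjusted p = 0.038) and with no filter on low counts (adjusted p = 0.00973).

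Next to Sox21, the transporter gene Abcc4 was at 20.3 to 32.2 normalised CPM in late libraries and 6.09 to 18.7 in early libraries, without overlap, and rose by 1.09 on the log2 scale (SE 0.25, edgeR adjusted p = 0.0369). The call was kept without passage 2, 3 or 4 of mouse_283 and lost in the other 8 fits that left out a library (adjusted p between 0.0661 and 0.121). Gpr180 and Tgds on the other side had log2 changes of -0.07 (SE 0.16) and 0.51 (SE 0.23), and Dzip1, beyond Abcc4, had 0.65 (SE 0.48). Leaving out passage 2 of mouse_283 brought Dzip1 past the threshold (1.25, adjusted p = 0.0458), while without passages 3 and 4 of mouse_283 its log2 change was 0.04 (adjusted p = 0.966).

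**Figure D5:**
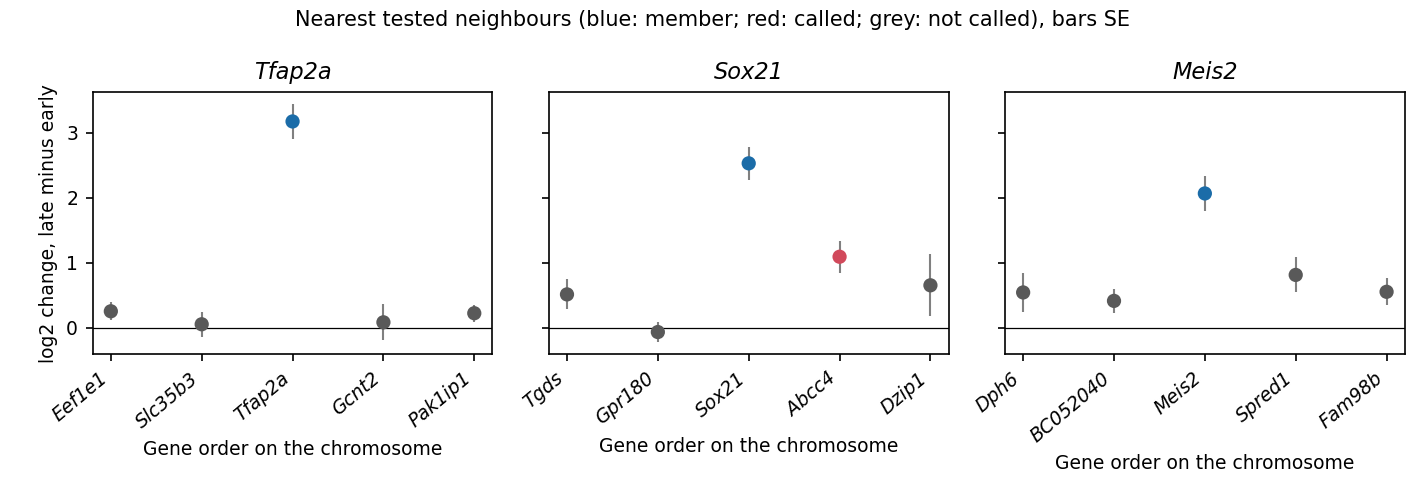
Log2 change, late minus early, with its SE for Tfap2a, Sox21 and Meis2 (blue) and the 2 nearest tested genes on each side, in chromosome order, red where the edgeR adjusted p was under 0.05. The members, which were chosen on this contrast, stand above their neighbours, and Abcc4 beside Sox21 is the called neighbour.

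Genes whose levels varied most alike were found by Pearson's r of log2 CPM over the 11 libraries, which does not compare the levels themselves. They were sought among the 9578 tested genes that had a mean of at least 5 CPM and a gene symbol of the usual kind (clone, predicted and unmatched names left out). For Tfap2a they were Vav3 (r = 0.96), Cenpn (0.95), Sox21 (0.94), Ddah1 (0.93) and Meis2 (0.93). For Sox21 they were Tspan8 (r = 0.96), Tfap2a (0.94), Nudt5 (0.93), Adcy8 (0.92) and B4galt4 (0.92), and for Meis2 they were Slc16a12 (r = 0.95), Npnt (0.93), Mtap (0.93), Tfap2a (0.93) and Ugt2b36 (0.93). Of the genes other than the members, Cenpn, Tspan8 and Nudt5 did not pass the threshold late against early (edgeR adjusted p = 0.15, 0.166 and 0.145). The rest were called higher late, as were 0.706% of all genes tested. Likeness to members chosen for a higher late level fixes this in large part. The Mtap call was lost in 9 of the 11 fits that left out a library (edgeR adjusted p between 0.0637 and 0.135) and with library totals alone. The B4galt4 call was lost without passage 13 of mouse_283 (edgeR adjusted p = 0.0506). Vav3, which encodes a guanine nucleotide exchange factor, was at 12.0 to 19.1 normalised CPM in late and 3.34 to 6.82 in early libraries. Adcy8, an adenylyl cyclase gene, was at 3.98 to 7.32 in late libraries of mouse_285 and 9.64 to 13.1 in those of mouse_283, against 0.97 to 1.08 and 4.15 to 5.24 in the early libraries of mouse_285 and mouse_283. Late mouse_285 and early mouse_283 libraries overlapped for Adcy8, which they did not for Sox21.

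Genes most alike once the mean of each mouse and stage was taken off were others. For Tfap2a they were Nck2 (r = 0.94), Rbm3 (0.9), Ntan1 (0.9), Slc35b4 (0.89) and Shisa2 (0.89). For Sox21 they were Ankrd37 (r = 0.97), Hdhd2 (0.96), Tfcp2 (0.95), Pigh (0.95) and Slc25a17 (0.95), and for Meis2 they were Cgas (r = 0.99), Tshz1 (0.98), Eif2ak3 (0.97), Dgcr8 (0.97) and Pdcd4 (0.97). None of these 15 passed the threshold late against early, beside 3.05% of all genes tested, so the lack of calls in so short a list says little. The deviations share libraries and their GC slopes, and they are given as a description.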

How the data were processed

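RNA sequencing counts from 11 organoid libraries were used. Trimmomatic, a read trimmer, STAR, an aligner that can also count reads per gene, and build mm9 were used, per the submitters' processing notes; versions and annotation release are not given in the sources used here. The deposited tables hold raw counts per gene in an unstranded and 2 strand columns; the unstranded column was used. Passage numbers are those of the sample titles; the names of the deposited tables give numbers higher by 1. Symbols, lengths, GC content and gene order came from annotations of the later build GRCm38, which matched 32620 of 37310 identifiers.

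Counts were analysed with edgeR 4.0.16 in R 4.3.3: filterByExpr with groups of mouse and stage, TMM, and two-sided quasi-likelihood F tests adjusted by Benjamini-Hochberg over 14172 genes, with a threshold of 0.05. Normalised CPM uses TMM-scaled library totals. An SE is the size of the log2 change over the root of its F statistic. For log2 CPM a prior count of 2 was added. Late was compared with early with mouse as a block, a pairing that comes from the animals named in the titles. The procedure was tested on simulated data.

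The members and lists were chosen with earlier results of these data known. Named were the members, list genes past the threshold, fixed relatives (Tfap2b, Tfap2c, Sox2, Sox4, Sox9, Sox14, Meis1, Meis3 and Cdx2, among others), 2 tested neighbours on each side, the 5 genes most alike by each measure, and leading and defining markers. Some genes that this rule named are not reported here. Alternatives were DESeq2 1.42.0 and its size factors, library totals, no filter, no mouse term, GC and length splines (5 degrees of freedom, 13709 genes), each library left out, passages 3 and 4 of mouse_283 left out, a prior count of 0.5 and, added after seeing the data, both strand columns summed.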

Additional observations from a re-analysis of the deposited data

Results flagged for a closer look

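Among 52 groups of 4 to 10 libraries checked for a library far from the rest, 2 had one, and chance alone gives such a library in about 1 of 20 groups. For Meis2 it was passage 2 of mouse_283, at 12.4 normalised CPM, against 3.99 to 6.38 in the other early libraries. The gap was 0.717 of the range of the early libraries, just over the limit of 0.71. For Mcam it was passage 4 of mouse_283, at 4.48 normalised CPM, against 2.25 to 2.61 in the other early libraries, a gap of 0.839 of the range.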

How the results depend on the processing

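The late-minus-early log2 changes of the members kept their direction in all 19 alternatives, between 3.04 and 3.37 for Tfap2a, 2.36 and 2.81 for Sox21 and 1.73 and 2.38 for Meis2. Interaction and slope stayed short of the threshold for all 3 members in 18 alternatives each, though signs varied. The mouse difference of Sox21 passed with DESeq2 (-1.43, adjusted p = 5.12e-06), with no filter (-1.44, adjusted p = 1.34e-05), without passages 3 and 4 of mouse_283 (-1.39) and with both strand columns (-1.35, adjusted p = 0.038), and ran from -1.57 to -1.25 with 1 library left out, with adjusted p up to 0.227 over all 18 alternatives; the cause was not tested. Leaving out the mouse block for late against early left the members' changes within the ranges above, gave 1 called AP-2 target and ended the calls of Bcl2, Pdx1, Grhl3 and Adcy8.

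Counts of calls depended more on the setting. DESeq2 gave 495 genes higher and 848 lower late, no filter 1053 and 766, GC correction 400 higher, against 410 lower, omission of passages 3 and 4 of mouse_283 192 higher, and omission of 1 library 39 to 2599 higher and 133 to 2265 lower, with both highest counts without passage 2 of mouse_283. Called AP-2 cofactors numbered 1 with GC correction and 0 to 1 with 1 library left out. Called AP-2 targets numbered 1 with library totals, 4 with no filter, 4 with GC correction and 0 to 6 with 1 library left out. Called SOX genes numbered 2 with DESeq2, no filter or GC correction and 1 to 2 with 1 library left out. Called TALE genes numbered 1 in those 3 settings and 0 to 1 with 1 library left out. Called intestinal factors numbered 1 with library totals, 5 with DESeq2, 7 with no filter, 5 without passages 3 and 4 of mouse_283 and 1 to 10 with 1 library left out. With 1 library left out, the highest of each of these list counts came without passage 2 of mouse_283 (for TALE genes also without passage 2 of mouse_285). The correlation of deviations changed sign for Tfap2a and Sox21 without passages 3 and 4 of mouse_283 (-0.16), for Sox21 and Meis2 in that setting (-0.63) and with GC correction (-0.29). With 1 library left out it ran from -0.0083 to 0.74 for Tfap2a and Sox21, -0.29 to 0.76 for Tfap2a and Meis2 and -0.46 to 0.45 for Sox21 and Meis2, the lowest values without passage 3 of mouse_283. Library totals alone moved the median log2 change of all genes to 0.11. Read depth limits the AP-2 paralogs, Sox2, Sox14 and Meis1, which stayed at or under 3 counts.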
